A study of Mus musculus with 6 samples.

Results

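Inflammatory signalling genes were examined in MPC5, an immortalised line of mouse podocytes (the glomerular filter's epithelial cells), as a list of 48 genes: 22 chemokines and cytokines, 6 cytokine receptors, 2 leukocyte adhesion molecules, 16 genes of the NF-kB pathway and 2 inflammatory effectors. A gene was taken when its symbol equalled a row name of the deposited count table, and all 48 were found among its 21719 genes. The comparison was between 3 libraries labelled Setdb2WT and 3 labelled Setdb2KO, all of MPC5 cells kept in high glucose, and it asks which of these transcripts differ between the genotype labels. The Setdb2 protein carries a SET domain and is linked to methylation of histone H3 at lysine 9. No cells without high glucose were analysed here, so every level below is a level in high glucose. Not given in the sources used here were the knockout method, whether the line is 1 clone, the glucose concentration, and separate cultures behind the 3 libraries of each label, and p-values therefore reflect no more than the variation among these libraries, which may be technical.

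NF-kB factors are dimers of the Rel family (products of Rela, Relb, Rel, Nfkb1 and Nfkb2) that IkB proteins hold in the cytoplasm. Receptors of the TNF and interleukin-1 families act through TRAF and RIP adaptors on the IkB kinase, which marks IkB for destruction and frees the dimers to enter the nucleus. Among the genes they switch on are chemokines, adhesion molecules and their own inhibitors, which gives the pathway negative feedback. In the glomerulus, podocytes can be a source of chemokines such as the monocyte attractant encoded by Ccl2, and NF-kB activity in podocytes has been studied in diabetic kidney disease.

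Libraries held 36461449 to 37129174 counted reads. The targeted transcript was not lower under the knockout label: Setdb2 had 12, 10 and 9 reads in the Setdb2WT-labelled libraries and 17, 15 and 25 in the others (log2 fold change 0.73, SE 0.38, adjusted p = 0.088, edgeR; adjusted p 0.043 to 0.324 over the alternatives). Whether labels or columns were exchanged, which would turn every direction given here, or the knockout leaves the transcript in place was not tested. The groups are therefore called by their labels, and directions are given for Setdb2KO-labelled relative to Setdb2WT-labelled libraries. Of the podocyte markers, 12 of 16 were in the table and summed to 1560 to 1563 CPM against 1436 to 1516 CPM, but Wt1, a defining transcription factor, had at most 2 reads in any library. Of the 10 podocyte markers tested, 4 rose and 5 fell, and the sums hide this: Actn4 fell 1.37-fold (716 ± 0.061 to 524 ± 16 CPM), Cd2ap rose 1.53-fold (415 ± 4.1 to 633 ± 67 CPM), and Podxl, the sialomucin podocalyxin, fell 10.2-fold (50.5 ± 1.6 to 4.96 ± 0.38 CPM; SD, n = 3 each). Immune cell markers (8 of 12 in the table) summed to 14.5 to 15.9 CPM against 12.9 to 15.7 CPM, and moved both ways: Ptprc had 4, 5 and 5 reads against 0 in each and Itgam 0 in each against 12, 9 and 13, while of the 3 tested Cd74 rose 4.34-fold, Cd68 rose 1.25-fold and Csf1r fell 1.86-fold. Endothelial markers (10 of 10) summed to 16.3 to 17.9 CPM against 16.7 to 18.3 CPM, with Cdh5 at most 1 read per library. All 4 tested were called: Esam rose 6.47-fold and Flt1 1.44-fold, and Kdr fell 1.87-fold and Ehd3 1.93-fold, while Pecam1, too sparse to test, had 3, 3 and 2 reads against 18, 12 and 9. Esam had 10, 12 and 6 reads against 61, 79 and 62. Under the Setdb2WT label these lay around the filter's minimum count of 10, so its call is not taken as support. Mesangial and fibroblast markers (11 of 12) differed: all 7 that could be tested fell, and the sum was 139 to 146 CPM against 33.6 to 36.3 CPM. The part of these markers in the results below was not tested. Libraries within a group differed by more than counting noise, most of all Setdb2KO replicate 2, whose chi-square divided by degrees of freedom was 8.36 and 14.8 against its companions, which differed from each other by 4.22.

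Most chemokine ligands and cytokine receptors fell in the libraries labelled Setdb2KO, and most NF-kB subunit and IkB genes rose. Of the 44 members with enough reads to be tested, 19 rose, 20 fell and 5 were not called (quasi-likelihood F test of edgeR, adjusted p under 0.05). The share called, 88.6%, stands beside 83.8% of all 13509 genes tested, of which 41.5% rose and 42.3% fell, so the number of calls alone says little about these genes. Nlrp3, Il33 and Il18 reached the filter on low counts only in the libraries of the label where they were higher, so that being tested already required a difference, and their calls are no support for these counts. Cxcl16 (2 of 3 libraries labelled Setdb2WT) and Ccl20 (1 of 3 labelled Setdb2KO) reached its cutoff in every library only under the label where they were higher. Their calls are not taken as support either. At least 2-fold changes numbered 6 up and 10 down, beside 32.6% of all genes tested in either direction. The groups did not overlap in 40 of the 44, beside 84.6% of all genes tested. The median log2 fold change was -0.036, the same with Nlrp3 set at its fold over a floor of 3 reads, against 0.0045 over all genes. By role, 7 of 10 tested chemokine ligands and 5 of 6 receptors fell (among them Il6st, whose call depends on the processing), while all 4 NF-kB subunits and 3 of 4 IkB genes rose. In bulk RNA, fewer cells making a transcript and less of it per cell cannot be told apart, and this holds for each value below.

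**Figure D1:**
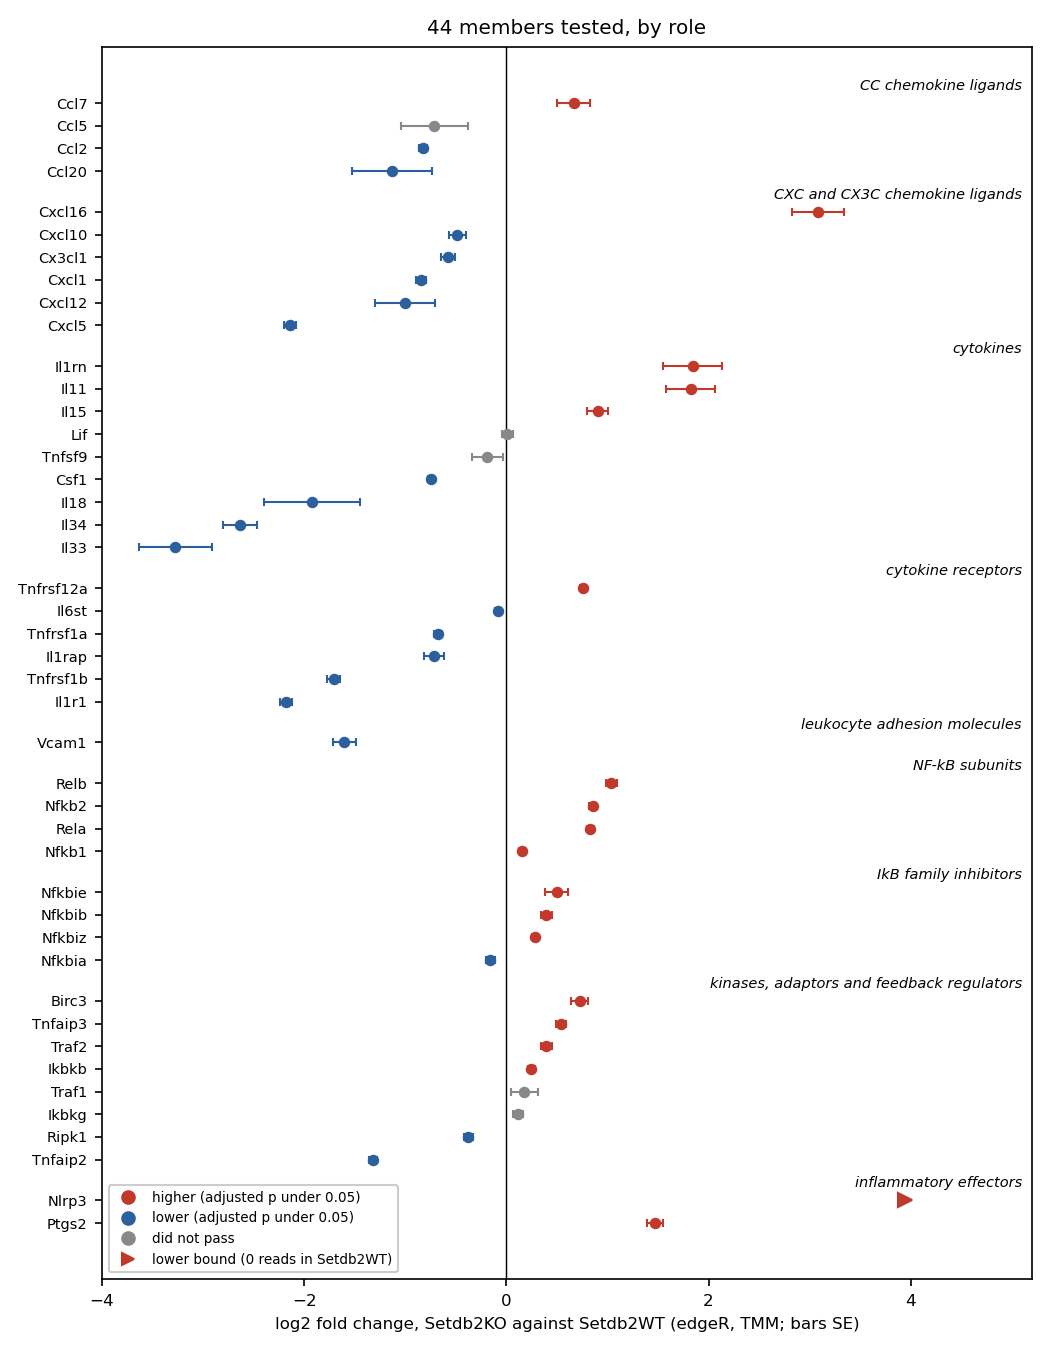
Log2 fold change of the 44 tested members (horizontal axis, Setdb2KO-labelled against Setdb2WT-labelled libraries, edgeR with TMM scaling), grouped by role, with bars of 1 SE. Nlrp3, which had 0 reads in the Setdb2WT-labelled libraries, is drawn at its fold over a floor of 3 reads. The legend calls this a lower bound, although it is not a lower limit. Most chemokine ligands and receptors lie left of 0 and the 4 NF-kB subunits lie right of it.

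The promoters of the members were read from RefSeq (GRCm38.p6; 250 bases before to 50 after each gene's start) to show which of them carry the word that NF-kB dimers recognise. An entry was found for 35 of the 48 members. Ccl2, Ccl5, Ccl7, Cxcl5, Cxcl16, Il15, Il34, Tnfsf9, Vcam1, Nfkb1, Relb, Nfkbiz and Ikbkb had none. On either strand, the kappa-B consensus was present in 12 of the 35 genes (34.3%), beside 6.16% of 10661 tested genes with an entry and 5.14% of all 27025 genes in that table. Counted by promoter, it was in 29.2% of the members' promoters and 4.51% of all promoters of the same length. The list was drawn up around the NF-kB pathway and the kinds of gene it switches on. The choice of members thus favours a high share by itself, and the share is no result of these data. It occurred among members that moved either way, in 4 of 12 genes that rose and 6 of 16 that fell. The windows below are written along the strand of the gene and end before its start site, with the match in capitals. They are shown because the same word precedes members that fell, 4 of them ligands and 1 the inhibitor gene Nfkbia, and NF-kB regulators and Nlrp3 that rose. Il1r1, the sixth gene that fell with a match, is left out because its match does not lie before every start site of the gene. Those of members that fell are the following.
Cxcl1 (chr5:90891159-90891198, plus strand): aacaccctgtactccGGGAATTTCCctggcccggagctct
Cxcl10 (chr5:92348968-92349007, minus strand): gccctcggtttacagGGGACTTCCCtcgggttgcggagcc
Csf1 (chr3:107760599-107760638, minus strand): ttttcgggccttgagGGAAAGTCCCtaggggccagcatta
Ccl20 (chr1:83116671-83116710, plus strand): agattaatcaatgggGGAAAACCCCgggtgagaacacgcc
Nfkbia (chr12:55492652-55492691, minus strand): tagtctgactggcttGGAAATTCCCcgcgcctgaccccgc
Those of members that rose are these.
Nfkb2 (chr19:46304683-46304722, plus strand): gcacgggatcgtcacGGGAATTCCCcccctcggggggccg
Nfkbie (chr17:45555579-45555618, plus strand): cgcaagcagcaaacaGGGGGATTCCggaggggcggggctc
Tnfaip3 (chr10:19015511-19015550, minus strand): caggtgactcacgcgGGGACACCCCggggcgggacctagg
Nlrp3 (chr11:59541368-59541407, plus strand): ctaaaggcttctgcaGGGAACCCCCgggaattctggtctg

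A different word, TGANTCA, which AP-1 dimers of Fos and Jun proteins recognise and which reads alike on both strands, was searched in the same promoters. It was present in 9 of the 35 members (25.7%), beside 6.44% of tested genes with an entry and 8.97% of all genes with one. Counted by promoter, it was in 22.9% of the members' promoters and 7.81% of all promoters of that length. Because the members were chosen, this share is no result of these data either. Of members that rose, 5 of 12 carried it, and of those that fell, 1 of 16, which was Cxcl10. It was also in 2 of 3 members not called and 1 of 4 not tested. These are few genes, and a link between the word and the direction of change was not tested. Matches of the AP-1 and kappa-B words overlapped in 0 of the members' promoters. A match is a string of letters and not a measured binding site. Il11 and Nfkb2, which also rose and carry a match, are left out because it does not lie before every start site of the gene. The word stands before 3 genes that rose and before Cxcl10 as follows.
Il1rn (chr2:24336704-24336740, plus strand): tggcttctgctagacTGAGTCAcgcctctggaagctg
Nfkbie (chr17:45555529-45555565, plus strand): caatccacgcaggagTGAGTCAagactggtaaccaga
Tnfaip3 (chr10:19015525-19015561, minus strand): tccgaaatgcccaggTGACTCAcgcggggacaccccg
Cxcl10 (chr5:92348942-92348978, minus strand): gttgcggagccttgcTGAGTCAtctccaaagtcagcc

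The abundant chemokine ligands were lower in the libraries labelled Setdb2KO. Cxcl5 (Entrez 20311), a ligand of the neutrophil receptor CXCR2, had 102, 96.5 and 99.1 CPM (read counts scaled to library size with TMM factors) in the libraries labelled Setdb2WT and 20.2, 23.1 and 24.3 CPM in the others. It fell 4.40-fold (log2 fold change -2.14, SE 0.06, adjusted p = 2.6e-13, edgeR), the largest fall among the chemokines of the list, and every value of one label lay far from every value of the other. Cxcl1 (Entrez 14825), which acts on the same receptor, had 146, 145 and 134 CPM against 79.2, 83.9 and 73.7 CPM. Its fall was 1.79-fold (log2 fold change -0.84, SE 0.05, adjusted p = 6.8e-10). Ccl2 (Entrez 20296), the main attractant of monocytes, had 119, 115 and 118 CPM against 63.1, 68.7 and 67.3 CPM, a 1.77-fold fall (log2 fold change -0.82, SE 0.04, adjusted p = 9.9e-11). The 3 genes were thus clearly separated between the labels, with an SD of at most 6.25 CPM within a group.

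Cxcl10 (Entrez 15945), an interferon-inducible ligand that draws T cells, had 66.3, 65.7 and 65.3 CPM in the Setdb2WT-labelled libraries and a wider spread, 49.0, 38.3 and 53.6 CPM, in those labelled Setdb2KO. It fell 1.40-fold (adjusted p = 1.3e-04). The lowest value was that of Setdb2KO replicate 2, and without it the log2 fold change was -0.36 in place of -0.49. Cx3cl1, a membrane-bound chemokine that also holds leukocytes, fell 1.49-fold, with means of 20.2 ± 0.56 and 13.5 ± 0.85 CPM (SD, n = 3 each; adjusted p = 3e-06, edgeR). Cxcl12, a ligand that retains CXCR4-bearing cells, fell 2.00-fold at a low level, from 1.16 ± 0.16 to 0.578 ± 0.18 CPM (adjusted p = 0.0065, edgeR).

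Cxcl16 and Ccl7 went the other way. Cxcl16 (Entrez 66102), a transmembrane chemokine that also serves as a scavenger receptor, had 0.572, 0.255 and 0.374 CPM against 3.72, 3.25 and 3.28 CPM. It rose 8.49-fold (log2 fold change 3.09, SE 0.25, adjusted p = 4.4e-08). Of the libraries labelled Setdb2WT, 2 of 3 reached the cutoff of the filter on low counts, against all 3 labelled Setdb2KO. Its test is therefore not taken as support. Zmynd15, a gene on the opposite strand whose exons overlap 18.3% of those of Cxcl16 in GENCODE, had 14 reads summed under the Setdb2WT label and 130 under the Setdb2KO label, and Cxcl16 had 42 and 396. Because the strand setting of the counting is not given, reads of the overlapping stretch cannot be told apart. Ccl7 (Entrez 20306), another monocyte attractant, is the next protein-coding gene after Ccl2 on chromosome 11 in RefSeq. It had 2.55, 1.96 and 1.95 CPM against 3.28, 3.54 and 3.44 CPM and rose 1.59-fold (adjusted p = 0.0019), whereas its neighbour Ccl2 fell. These neighbouring genes differed in direction without overlap between the labels in either.

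Of the remaining CC chemokines, Ccl20, which attracts CCR6-bearing lymphocytes, had 23, 20 and 27 reads against 19, 7 and 9. It passed (log2 fold change -1.13, SE 0.40, adjusted p = 0.017), but not without Setdb2WT replicate 3 (adjusted p = 0.0677), Setdb2KO replicate 2 (0.0742) or Setdb2KO replicate 3 (0.0594), within a range of 0.00412 to 0.0742 over all alternatives. All 3 libraries labelled Setdb2WT but only 1 labelled Setdb2KO reached the cutoff of the filter on low counts. The test of Ccl20 is therefore not taken as support. Ccl5, a ligand for T cells and monocytes, had 36, 24 and 50 reads against 19, 30 and 25, and the labels overlapped. Its log2 fold change of -0.71 (95% interval -1.42 to -0.00) did not pass at an adjusted p of 0.058, and it passed without Setdb2WT replicate 2 (0.0181) or Setdb2KO replicate 2 (0.0384), within 0.0181 to 0.274 over the alternatives. Cxcl2, next to Cxcl1 on chromosome 5, had 2 to 7 reads against 2 to 10 and was too sparse to test.

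Among the cytokines, both ligands of the macrophage colony-stimulating factor receptor fell. Csf1 (Entrez 12977) had 349, 344 and 342 CPM against 204, 211 and 201 CPM, a 1.68-fold fall (log2 fold change -0.75, SE 0.03, adjusted p = 1.7e-11). Il34 (Entrez 76527), the other ligand, had 7.38, 6.78 and 7.93 CPM against 0.957, 1.498 and 1.09 CPM. Its fall was 6.21-fold (log2 fold change -2.63, SE 0.17, adjusted p = 2.1e-09). Csf1r, their shared receptor and no member of the list (named after its values were seen), fell 1.86-fold, with means of 9.74 ± 0.35 and 5.24 ± 0.55 CPM (SD, n = 3 each). Ligands and receptor were each lower in all 3 libraries labelled Setdb2KO.

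Il33 (Entrez 77125), a nuclear alarmin of the interleukin-1 family, had 54, 50 and 57 reads against 3, 6 and 9. It was 9.86-fold lower on the summed reads (exact 95% interval 6.05 to 17.1, for counting error alone). Its fitted fall of 9.67-fold (log2 fold change -3.27) was the largest of all tested members. Il18, another member of that family that inflammasomes activate, fell from 11, 26 and 19 reads to 7, 4 and 5, 3.86-fold lower on the summed reads (exact 95% interval 2.18 to 7.21, for counting error alone). Both transcripts lay under 2 CPM in every library, so these folds rest on few reads. Both reached the filter on low counts only in the libraries labelled Setdb2WT, so their tests are no support.

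The cytokines that rose were Il1rn, Il11 and Il15. Il1rn (Entrez 16181), the natural antagonist of the interleukin-1 receptor, had 0.458, 0.766 and 1.38 CPM against 3.65, 2.87 and 2.84 CPM and rose 3.59-fold (log2 fold change 1.84, SE 0.29, adjusted p = 3.8e-05). Il11, a cytokine that signals through gp130, rose 3.54-fold, with means of 0.742 ± 0.24 and 2.63 ± 0.25 CPM (SD, n = 3 each; adjusted p = 8.6e-06, edgeR). Il15, a growth factor of natural killer and memory T cells, rose 1.87-fold from 7.38 ± 1.2 to 13.8 ± 0.31 CPM (adjusted p = 1.6e-06, edgeR). In each of the 3, all libraries labelled Setdb2KO lay above all those labelled Setdb2WT.

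Lif and Tnfsf9 did not pass. Lif, a further gp130 cytokine, had 29.3, 29.7 and 27.3 CPM against 28.4, 28.8 and 29.6 CPM, with a log2 fold change of 0.01 (95% interval -0.11 to 0.13). Tnfsf9, the ligand of the T cell costimulator 4-1BB, had 3.72, 4.48 and 3.88 CPM against 3.46, 4.11 and 3.02 CPM (log2 fold change -0.19, 95% interval -0.52 to 0.14). The labels overlapped in both. Gm11110 on the other strand covers 14.9% of the Tnfsf9 exons and summed to 364 reads against 252. Il6 and Tnf, often taken as the standard inflammatory cytokines, were nearly absent. Il6 had 0, 3 and 1 reads against 5, 9 and 10, 5.44 times higher on the summed reads (exact 95% interval 1.87 to 21.6, for counting error alone). Tnf had 2, 3 and 1 reads against 0 in each, which is 2.21-fold lower when the Setdb2KO group is set at a floor of 3 reads over its libraries. The exact 95% interval on its summed reads began at 1.30-fold lower, for counting error alone. Neither passed the filter on low counts. With that filter dropped, Il6 reached an adjusted p of 0.0291 and Tnf 0.0431 in edgeR's test.

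**Figure D2:**
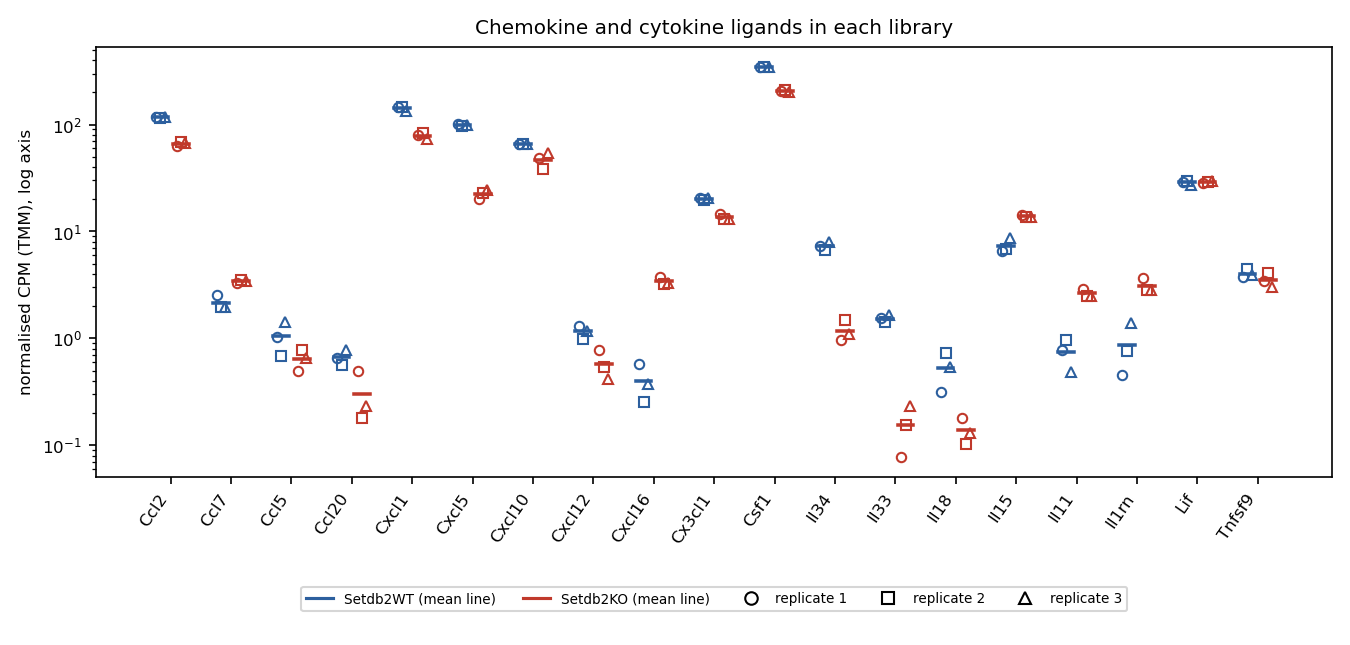
Normalised CPM (vertical log axis, scaled by TMM) of 19 chemokine and cytokine ligands in each of the 6 libraries, with a symbol per replicate number and a line at the mean of each label. Cxcl5, Il34 and Il33 show the widest gaps downward and Cxcl16 the widest upward, while the libraries of Lif and Tnfsf9 are mixed.

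The receptors fell with the exception of Tnfrsf12a. Il1r1 (Entrez 16177), the signalling receptor of interleukin-1, had 55.1, 53.3 and 54.9 CPM against 12.9, 11.1 and 12.1 CPM. It fell 4.53-fold (log2 fold change -2.18, SE 0.06, adjusted p = 2.7e-13). Il1rap, the accessory chain that Il1r1 and the interleukin-33 receptor both need, fell 1.64-fold, with means of 13.8 ± 1.5 and 8.39 ± 0.56 CPM (SD, n = 3 each; adjusted p = 9.3e-06, edgeR). With Il1rn higher, the receptor and its accessory chain were lower and their antagonist was higher in every library labelled Setdb2KO. Il1a and Il1b, the agonists, were looked up afterwards and had at most 1 read in any library. Il1rl1, the receptor of Il33, fell 2.96-fold from 97.9 ± 5.4 to 33.1 ± 2.0 CPM.

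Of the TNF receptors, Tnfrsf1b, which binds membrane-bound TNF best, had 28.1, 30.5 and 31.4 CPM against 9.26, 9.19 and 9.10 CPM and fell 3.27-fold (log2 fold change -1.71, SE 0.07, adjusted p = 1.3e-11). Tnfrsf1a, the widely expressed TNF receptor with a death domain, fell 1.60-fold, with means of 90.6 ± 1.4 and 56.6 ± 1.4 CPM (SD, n = 3 each; adjusted p = 5.3e-10, edgeR). Tnfrsf12a (Entrez 27279), the receptor of the cytokine TWEAK, had 183, 183 and 180.3 CPM against 299, 320.1 and 305 CPM. It rose 1.69-fold (log2 fold change 0.76, SE 0.03, adjusted p = 3.4e-11), the opposite direction to the other TNF receptors of the list. Il6st, which encodes gp130, the shared signalling chain of interleukin-6, Il11 and Lif, had 344, 347 and 347 CPM against 325, 336 and 321 CPM. Its log2 fold change of -0.08 (SE 0.03, adjusted p = 0.022) turned to 0.075 with an adjusted p of 0.0288 under total-count scaling, and it did not pass with DESeq2 size factors (0.0707), upper-quartile scaling (0.0636), the DESeq2 Wald test (0.116), or without Setdb2KO replicate 1 (0.0834) or replicate 3 (0.0672), within 0.000656 to 0.116 over the alternatives. Under total-count scaling the receptors therefore split into 2 higher and 4 lower.

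Vcam1, which binds leukocyte integrins and is induced by TNF in many cells, had 11.8, 15.2 and 12.9 CPM against 4.39, 4.62 and 4.14 CPM. It fell 3.04-fold (log2 fold change -1.60, SE 0.11, adjusted p = 6.6e-09). Icam1, the other adhesion molecule, had 4, 5 and 8 reads against 4, 11 and 14 and did not pass the filter. At this depth no difference was detectable in Icam1, the summed reads standing at 1.55 times (exact 95% interval 0.822 to 3.00, for counting error alone).

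All 4 NF-kB subunits on the list rose. Nfkb2 (Entrez 18034), the precursor of p52 in the non-canonical pathway, had 207, 216 and 214 CPM against 383, 394 and 373 CPM and rose 1.81-fold (log2 fold change 0.85, SE 0.03, adjusted p = 6.8e-12). Rela (Entrez 19697), the p65 subunit of the canonical dimer, had 188, 193 and 192 CPM against 327, 353 and 341 CPM, a 1.78-fold rise (log2 fold change 0.83, SE 0.03, adjusted p = 1.6e-11). Relb (Entrez 19698), the partner of p52, had 20.3, 20.7 and 20.5 CPM against 43.4, 43.2 and 39.8 CPM and rose 2.05-fold (log2 fold change 1.04, SE 0.05, adjusted p = 2.8e-10). Nfkb1 (Entrez 18033), the precursor of p50, rose by less, 1.11-fold, from 162, 169 and 162 CPM to 185, 185 and 179.9 CPM (adjusted p = 4.9e-04). The labels did not overlap in any of the 4. Rel, the remaining subunit, is no member of the list and was looked up after the values of the others were seen: it fell 1.29-fold from 17.6 ± 1.8 to 13.7 ± 0.77 CPM (adjusted p = 0.0011, edgeR). Exons of Psd on the other strand overlap 6.52% of those of Nfkb2, and Psd had 578 reads over the Setdb2WT-labelled libraries and 1286 over the others, against 22283 and 44410 of Nfkb2.

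Of the IkB genes, 3 rose and 1 fell. Nfkbia (Entrez 18035), the inhibitor that NF-kB re-induces within its feedback loop, had 54.5, 55.4 and 57.1 CPM against 48.7, 52.0 and 49.1 CPM and fell 1.12-fold (log2 fold change -0.16, SE 0.04, adjusted p = 0.0044). Under total-count scaling its log2 fold change was -0.0040 with an adjusted p of 0.933, the highest of a range that begins at 0.000541, so the IkB genes then numbered 3 higher and 0 lower. Nfkbib, a second cytoplasmic inhibitor, rose 1.32-fold, with means of 34.0 ± 1.3 and 44.8 ± 2.6 CPM (SD, n = 3 each). Its exons overlap those of Sirt2 by 1.94% and of Ccer2 by 14.5%, which summed to 5946 and 3 reads under the Setdb2WT label and 15451 and 56 under the Setdb2KO label. Nfkbie, the epsilon inhibitor, rose 1.41-fold from 10.5, 12.2 and 13.9 CPM to 20.01, 15.4 and 16.2 CPM (adjusted p = 9.5e-04). Nfkbiz, a nuclear IkB protein that helps to switch on secondary response genes, rose 1.22-fold from 139 ± 2.4 to 169 ± 3.4 CPM.

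Among kinases, adaptors and feedback regulators, with Tnfaip2 placed in that group, 4 of 8 rose, 2 fell and 2 did not pass. Ikbkb, the catalytic subunit of the IkB kinase that the canonical pathway needs, rose 1.19-fold, with means of 101 ± 3.7 and 119 ± 0.42 CPM (SD, n = 3 each; adjusted p = 1.9e-05, edgeR). Chuk, the other catalytic subunit, was looked up afterwards and rose 1.48-fold. Ikbkg, which encodes the scaffold NEMO, had 28.6, 30.0 and 28.9 CPM against 30.7, 32.5 and 31.5 CPM. It did not overlap between the labels but did not pass (log2 fold change 0.11, SE 0.05, adjusted p = 0.054), with an adjusted p of 0.000253 to 0.181 over the alternatives and a call under 5 of 14 of them. Its exons share 5.15% with G6pdx on the other strand, which summed to 25482 reads under the Setdb2WT label and 4857 under the Setdb2KO label, and reads of the shared stretch cannot be told apart. Traf2, which couples TNF receptors to the kinase, rose 1.32-fold from 32.8 ± 1.5 to 43.2 ± 0.84 CPM, and Traf1, an NF-kB-induced relative, had 3.43, 3.74 and 4.20 CPM against 4.45, 4.37 and 4.07 CPM and did not pass (adjusted p = 0.22). Ripk1, the kinase and scaffold below TNF receptor 1, fell 1.30-fold from 68.2 ± 2.7 to 52.6 ± 2.8 CPM. Serpinb6a, on the other strand and covering 2.89% of the Ripk1 exons, summed to 24179 reads against 14269.

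The remaining genes of this group did not share a direction. Tnfaip3, which encodes the ubiquitin-editing brake A20, had 31.7, 32.1 and 30.6 CPM against 47.7, 44.9 and 44.9 CPM and rose 1.46-fold (log2 fold change 0.54, SE 0.05, adjusted p = 1.2e-07). Birc3, an inhibitor of apoptosis that also ligates ubiquitin to RIP kinases, rose 1.65-fold, with means of 8.57 ± 0.49 and 14.2 ± 0.83 CPM (SD, n = 3 each). Tnfaip2 (Entrez 21928), a TNF-induced gene, had 101, 107 and 106 CPM against 41.3, 43.0 and 41.1 CPM and fell 2.50-fold (log2 fold change -1.32, SE 0.04, adjusted p = 9e-13). In Tnfaip3, Birc3 and Tnfaip2 the labels did not overlap.

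Both effectors were higher in the libraries labelled Setdb2KO. Ptgs2 (Entrez 19225), the inducible cyclooxygenase, had 97.4, 99.6 and 97.1 CPM against 275, 230.4 and 309 CPM and rose 2.77-fold (log2 fold change 1.47, SE 0.08, adjusted p = 2.5e-10). Its spread was 39.3 CPM (SD) in the libraries labelled Setdb2KO and 1.34 CPM in those labelled Setdb2WT, with Setdb2KO replicate 2 lowest, and without that library the log2 fold change was 1.57. Nlrp3 (Entrez 216799), the sensor of an inflammasome, had 0 reads in each library labelled Setdb2WT and 22, 13 and 16 reads in the others. Set against a floor of 3 reads over the Setdb2WT-labelled libraries it was at least 15.4-fold higher. Its test is no further support, for the reason given above, and under a filter of 1 CPM in 3 libraries it was not tested. It stayed under 1 CPM, so the level reached was low.

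**Figure D3:**
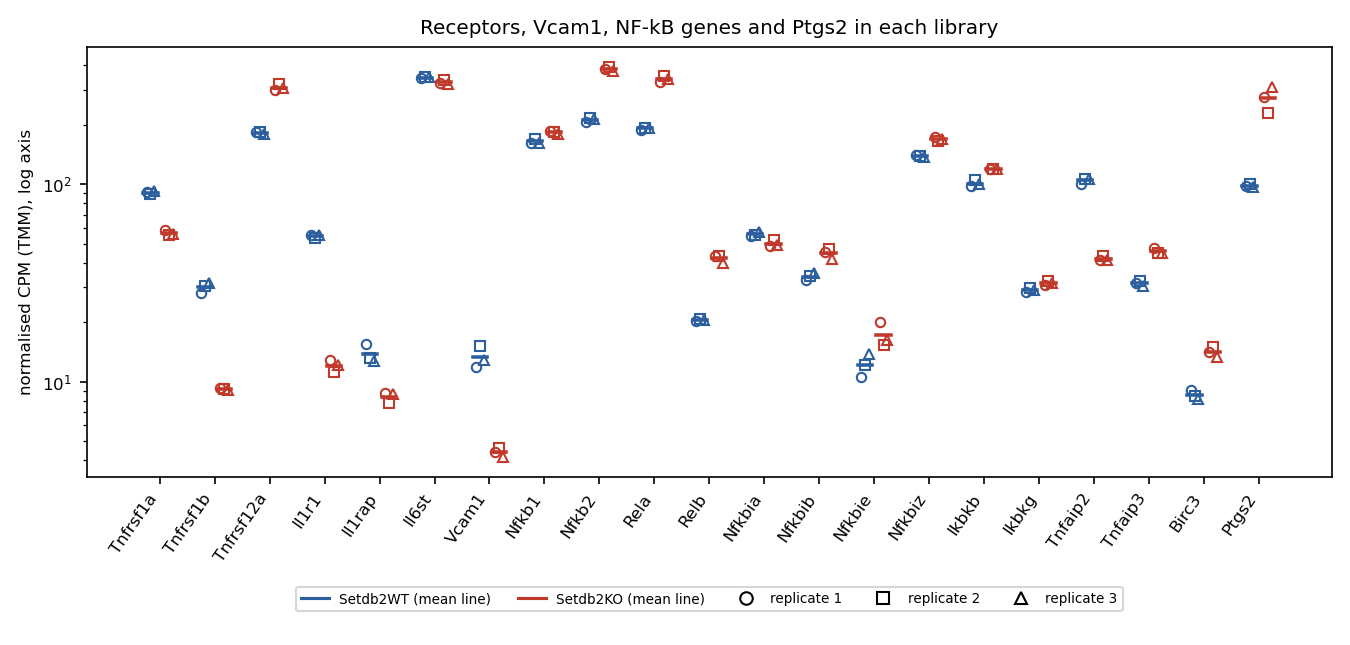
Normalised CPM (vertical log axis, scaled by TMM) of 6 receptors, Vcam1, NF-kB genes and Ptgs2 in each library, with a symbol per replicate number and a line at the mean of each label. The 2 labels lie apart in Il1r1, Tnfrsf1b, Vcam1 and Tnfaip2, higher under Setdb2WT, and in Nfkb2, Rela, Relb and Ptgs2, higher under Setdb2KO.

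To compare levels between genes, CPM were divided by the length of the merged exons of each gene in GENCODE vM21 (GRCm38), which is not the authors' annotation. By this level per kilobase, Ccl2 led the list in the libraries labelled Setdb2WT at 103 ± 1.5 CPM per kb (SD, n = 3), followed by Tnfrsf12a (94.3 ± 0.81), Cxcl1 (75.5 ± 3.3), Csf1 (65.3 ± 0.66) and Rela (62.3 ± 0.86). In those labelled Setdb2KO the order was Tnfrsf12a (159 ± 5.6 CPM per kb), Rela (111 ± 4.2), Nfkb2 (83.7 ± 2.2), Ptgs2 (59.2 ± 8.6) and Ccl2 (58.3 ± 2.6), and the last pair did not differ beyond its spread. Chemokine and growth factor ligands thus held 3 of the top 5 places under the Setdb2WT label and 1 under the Setdb2KO label. Il6, Tnf, Icam1 and Cxcl2 were among the lowest under both labels, each at or under 0.0854 CPM per kb. Summed over all 48 members, the level was 2875 to 2895 CPM against 3068 to 3088 CPM, not divided by length.

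Other genes of these pathways were taken from 3 lists drawn up with earlier results of these data known. Of 43 tested NF-kB signalling components that are not members, 16 rose and 21 fell, leaving 6 uncalled. Their median log2 fold change was -0.14, beside 0.0045 over all genes. The genes with the smallest adjusted p there were Tollip, an adaptor that restrains Toll-like receptor signals, which rose 3.05-fold, with means of 75.7 ± 2.0 and 230.4 ± 4.3 CPM (SD, n = 3 each), Otud7b, a deubiquitinase of the non-canonical pathway, which rose 2.31-fold, Tank, a TRAF-binding adaptor, which rose 1.97-fold, and Irak1, the kinase below interleukin-1 and Toll-like receptors, which fell 2.16-fold. Map3k14, the kinase NIK that starts processing of the Nfkb2 product, was looked up afterwards and fell 3.24-fold from 32.7 ± 1.9 to 10.1 ± 1.2 CPM, while Nfkb2 and Relb rose.

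Of 17 other tested chemokine and cytokine ligands, 4 rose and 9 fell, leaving 4 uncalled (median log2 fold change -0.52). Spp1, osteopontin, fell 2.64-fold, with means of 616 ± 13 and 233 ± 2.1 CPM (SD, n = 3 each), Mif, a cytokine that holds macrophages in place, fell 2.48-fold, and Gdf15, a stress cytokine, fell 2.04-fold. Tnfsf13b, the B cell factor BAFF, had 4, 4 and 6 reads against 147, 109 and 110. It rose 23.1-fold from 0.133 ± 0.034 to 3.16 ± 0.55 CPM. Under the Setdb2WT label its reads lay below the filter's minimum count of 10. Being tested thus already required a difference, so its call is no support and the fold rests on few reads. Of 33 other tested receptors, 10 rose and 19 fell, leaving 4 uncalled (median log2 fold change -0.33). Ifngr1, a chain of the interferon-gamma receptor, fell 3.29-fold from 230.3 ± 1.9 to 70.1 ± 2.1 CPM, Il17rc, a chain of the interleukin-17 receptor, 2.23-fold, Il1rl1 2.96-fold and Tnfrsf21, death receptor 6, 8.10-fold. Across the 3 lists, 84.9% of 93 tested genes were called, near the share of all genes, with 30 higher and 49 lower.

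The KEGG annotation in the deposited table gave larger sets, chosen after the members' values were seen. The NF-kappa B and TNF sets share 21 and 28 genes with the list, and the cytokine-cytokine receptor and chemokine sets 28 and 17. Of 74 tested genes of NF-kappa B signaling 34 rose and 33 fell, with 90.5% called and a median of 0.08. Of 100 tested genes of TNF signaling 30 rose and 58 fell, with 88% called and a median of -0.32. Cytokine-cytokine receptor interaction had 32 higher and 50 lower of 107 tested (76.6% called, median -0.18), and chemokine signaling 44 higher and 56 lower of 111 (90.1% called, median -0.17). The share over all genes was 83.8%.

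The choice of scaling decided the calls of members with small changes. Total-count scaling moved the median log2 fold change of all genes by 0.15 relative to TMM, and the members then numbered 23 higher and 18 lower. Il6st, Nfkbia, Lif, Ikbkg and Traf1 were the members whose call or direction changed with it. Lif then had a log2 fold change of 0.16 (adjusted p = 0.0138, 0.0138 to 0.954 over the alternatives) and Traf1 0.33 (adjusted p = 0.0303, 0.0303 to 0.52 over the alternatives), beside the 0.15 by which all genes moved. The 4 NF-kB subunits were higher, and Ccl2, Cxcl1, Cxcl5, Csf1, Il34, Il33, Il1r1, Tnfrsf1a, Tnfrsf1b, Vcam1 and Tnfaip2 lower, under each of the 4 scalings.

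**Figure D4:**
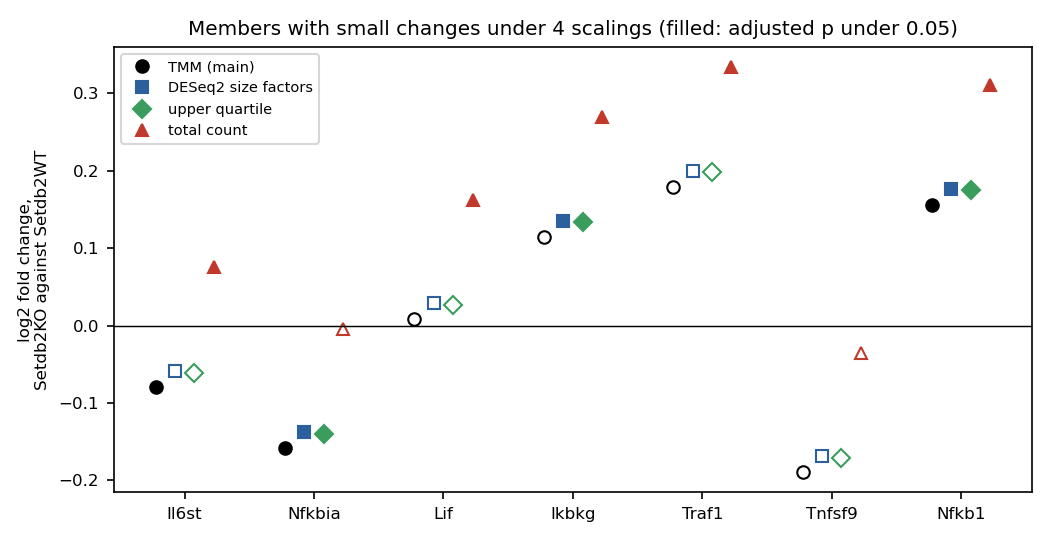
Log2 fold change (vertical axis) of 7 members with small changes under 4 scalings in edgeR (TMM, size factors of DESeq2, total counts and upper quartile), with filled symbols where the adjusted p is under 0.05. Under total-count scaling Il6st turns from -0.08 to 0.075 and Nfkbia moves from -0.16 to -0.0040.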

How the data were processed

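Total RNA of 6 MPC5 samples was extracted with TRIzol and made into libraries with a VAHTS kit, per the labels' protocols. The values deposited by the authors are unnormalised gene-level read counts. The submitters' processing notes name fastp, HISAT, HTSeq and the build GRCm39, with versions, annotation and strandedness not given in the sources used here. Columns were matched to samples by genotype and number, and 0 were left unmatched.

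Counts were fitted across the whole table with edgeR 4.0.16 in R 4.3.3: TMM scaling, filterByExpr with a minimum count of 10, genotype label as the only term, the quasi-likelihood F test, and Benjamini-Hochberg adjustment of p over every tested gene with a threshold of 0.05. SD is over 3 libraries and SE is that of the log2 fold change. Intervals of count ratios are exact at 95% and cover counting error only. Folds over a floor of 3 reads take the reads of the other group as they are, so they are not lower limits. DESeq2 1.42.0 and limma 3.58.1 served as alternatives. The scripts were tested on simulated counts in which few genes changed, evenly up and down. Most tested genes were called in these data, so that test does not bear on the choice of scaling. All 48 members could be named, plus up to 4 genes with the smallest adjusted p and a mean CPM of at least 1 from each pathway list. Marker-list genes, exon neighbours and Setdb2 are named as checks, and others are marked as looked up afterwards or named after their values were seen. Members and lists were chosen with earlier results of these data known. Promoters and exons come from RefSeq and GENCODE on GRCm38, not the authors' build. Replicate numbers did not pair the samples.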

Additional observations from a re-analysis of the deposited data

How the results depend on the processing

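Of the 44 tested members, 37 kept their direction and their side of the threshold under each of these alternatives that tested them: 3 other scalings, the DESeq2 Wald test, limma-voom, 2 other filters, the replicate number as a block and each library left out. Of the 37, Cxcl12, Il18 and Nlrp3 were not tested under the filter of 1 CPM in 3 libraries, which leaves 34 that held under all 14. The 7 exceptions were Ccl5, Ccl20, Lif, Il6st, Nfkbia, Ikbkg and Traf1. Il6st reversed under total-count scaling (0.075), and Lif, which was called only under total-count scaling (0.16), had -0.0051 without the filter and -0.0434 (without Setdb2WT replicate 3) to 0.0227 (without Setdb2KO replicate 1) with each library left out, also below 0 without Setdb2KO replicate 3 (-0.0069). Against a limit of 1.5-fold in place of no change, glmTreat called 3019 genes higher and 3118 lower in the whole table (6137 in all) and 11 members higher and 12 lower (23 in all), since it tests for a larger change. With each library left out, members called numbered 37 to 40 (19 higher in every case and 18 to 21 lower), all genes called 11067 to 11496 (5435 to 5670 higher, 5585 to 5826 lower) and other pathway genes 77 to 81 (29 to 31 higher, 48 to 51 lower). Same-numbered libraries did not deviate together (correlations of -0.0301 to 0.000719), and with the replicate block 39 members and 11190 genes were called, against 39 and 11318 without it. Depth limits the values of Cxcl2, Il6, Icam1 and Tnf, which had at most 14 reads in any library.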
